A study of Rattus norvegicus with 30 samples.

Results

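The 10 genes described here, out of 14557 genes measured in whole rat adrenals, are *Giot1* together with *Scx*, *Creb3l1*, *Arhgap32*, *Nptx2*, *Osgin2*, *Ccp110*, *Jcad*, *Mal2* and *Cldnd1*. They were picked because earlier results of the same arrays showed them lower after testosterone in orchidectomized males and also lower after estradiol in ovariectomized females. Each was found by its exact gene symbol, and each was represented by 1 probe set. Because the fall under each hormone chose the genes, that fall is given below as a description with no test. The gonadectomized and the replaced groups that enter it also enter the comparisons with controls, which are therefore given as values and counts.

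The study hybridized adrenal RNA of 30 Wistar rats, 5 in each of 6 groups, to 1 Affymetrix Rat Gene 2.1 ST array per rat. Rats of both sexes were 12 weeks old and either sham operated (control males, control females), orchidectomized (ORX) or ovariectomized (OVX). After 14 days part of the ORX rats received a depot injection of testosterone at 5 mg per 100 g of body weight (ORX + T), and part of the OVX rats a depot injection of estradiol at 0.5 mg per 100 g (OVX + E). All groups were killed 4 weeks after surgery, so that hormone acted for 2 weeks in rats whose adrenals had been without gonadal steroids before. The design holds no male given estradiol and no female given testosterone, and the doses differ, so sex, hormone and dose cannot be told apart. Sham operated females had intact ovaries, and the cycle stage is not given in the labels. The arrays measured the whole gland, and in such tissue fewer cells of a type and less RNA per cell cannot be told apart.

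The adrenal gland joins a steroid-producing cortex to a medulla of catecholamine-producing chromaffin cells under a capsule of connective tissue. Androgens and estrogens reach it from the gonads and act through nuclear receptors in the gland, and also through the hypothalamus and pituitary, whose ACTH raises cyclic AMP in cortical cells. The 10 genes belong to no single pathway. *Giot1* encodes a zinc finger transcription factor first found in the rat ovary as a gene that gonadotropins induce. *Scx* encodes scleraxis, a basic helix-loop-helix factor of tendon and other connective tissue, and *Creb3l1* a membrane-bound factor that is cut free in the secretory pathway and drives collagen and secretory genes. *Arhgap32* encodes a GTPase-activating protein and *Jcad* a protein of endothelial cell junctions. *Nptx2* encodes a secreted neuronal pentraxin that clusters AMPA receptors, *Ccp110* a centriole cap protein that restrains cilium formation, *Mal2* a proteolipid of membrane transport in polarized epithelia and *Cldnd1* a membrane protein with a claudin domain. *Osgin2* is a relative of the oxidative stress-induced growth inhibitor *Osgin1*.

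Values are deposited log2 signals, on which a difference of 1 is a 2-fold change. The arrays fell into 20 wide arrays, on which the SD of the log2 signal over all probe sets was 1.67 to 1.75, and 10 narrow arrays with an SD of 1.43 to 1.60. The control groups held 1 narrow array each and the 4 other groups 2 each. The 10 genes tended to read lower on narrow arrays, so the counts against controls and the tests are also given without them. Falls, positions and overlaps are given over all arrays unless stated otherwise. The adrenal label was borne out by the markers of the zona fasciculata. None of their 4 measured genes was counted as under the array median, a count made per gene over all arrays.

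Of the transcription regulators, *Giot1* showed the largest falls with either hormone. In the males its signal was 9.02, 10.46, 9.56, 8.39 and 8.54 in the 5 controls, 10.85, 11.04, 10.02, 10.44 and 9.84 in the ORX rats, and 7.86, 7.76, 7.60, 7.66 and 7.31 in the ORX + T rats. In the females it was 8.93, 8.60, 8.77, 9.65 and 9.37 in the controls, 10.44, 10.84, 9.96, 10.98 and 10.22 in the OVX rats, and 7.93, 8.40, 8.65, 8.45 and 7.75 in the OVX + E rats. The ORX + T rats lay below every other male, with an SD of 0.21 against 0.84 in the control males. All OVX rats lay above all control females, whereas the OVX + E rats overlapped the control females at one end, since the lowest control (8.60) lay under the highest replaced rat (8.65). Control males also overlapped the ORX rats, through the control at 10.46.

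The group means of *Giot1* ran from 7.64 ± 0.21 (SD, n = 5) in ORX + T rats through 8.23 ± 0.38 in OVX + E rats, 9.07 ± 0.44 in control females and 9.19 ± 0.84 in control males to 10.44 ± 0.52 in ORX and 10.49 ± 0.42 in OVX rats. The 2 control means and the 2 gonadectomized means each lay closer together than their SDs. The signal was 2.80 (SE 0.31 in the fit over all arrays) lower in ORX + T than in ORX rats, and 2.25 lower in OVX + E than in OVX rats. It was 1.25 higher in ORX than in control males and 1.42 higher in OVX rats than in their controls. Against controls, the signal stood 1.55 lower in ORX + T rats and 0.83 lower in OVX + E rats. The gonadectomized and replaced rats also chose the gene, so these differences are given here with no test.

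The promoter of *Giot1* is shown because it held the letters of a full cyclic AMP response element, the site of CREB family factors, and of an Nr4a site. Sequences are the 250 bases before the start of the gene in RefSeq (build GRCr8), read on the strand of the gene, and 7 of the 10 genes matched an entry. In the *Giot1* sequence the first capitals mark a cyclic AMP response element (TGACGTCA, 248 bases before the start) and the second an Nr4a site read on the opposite strand (AAAGGTCA, 166 bases before it). *Nptx2* and *Creb3l1* are printed beside it for the other matches: in *Nptx2* the capitals mark the half-site TGACG at 90 bases, and in *Creb3l1* an E-box of the form CAGCTG at 50 bases.
Giot1, chr7:10886966-10887215, minus strand: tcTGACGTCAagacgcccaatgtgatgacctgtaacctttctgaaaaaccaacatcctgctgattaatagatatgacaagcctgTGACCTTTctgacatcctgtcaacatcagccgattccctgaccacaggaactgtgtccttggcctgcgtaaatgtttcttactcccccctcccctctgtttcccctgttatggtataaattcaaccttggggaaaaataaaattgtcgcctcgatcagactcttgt
Nptx2, chr12:15162046-15162295, minus strand: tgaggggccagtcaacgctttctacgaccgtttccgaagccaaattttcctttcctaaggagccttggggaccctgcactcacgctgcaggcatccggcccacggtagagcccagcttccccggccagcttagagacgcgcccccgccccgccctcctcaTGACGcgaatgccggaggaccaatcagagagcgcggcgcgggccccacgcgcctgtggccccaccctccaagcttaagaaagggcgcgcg
Creb3l1, chr3:98449105-98449354, minus strand: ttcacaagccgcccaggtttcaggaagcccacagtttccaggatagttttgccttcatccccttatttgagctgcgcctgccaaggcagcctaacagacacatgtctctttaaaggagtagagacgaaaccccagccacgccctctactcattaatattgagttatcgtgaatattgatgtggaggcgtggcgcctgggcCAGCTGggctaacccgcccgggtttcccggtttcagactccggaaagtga

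Both strands of all 33469 RefSeq promoters of that length were searched for the same letters. The full response element was found in 1.59% of them and the Nr4a site in 1.24%. Of the 7 genes matched *Giot1* alone held either, but the full element also lay 9 bases before the start of *Nos1*, a gene outside the set that was lower with both hormones. The half-site, which lies inside the full element of *Giot1*, was found in 18.2% and the E-box in 12.0%. The NR5A1 site of steroidogenic factor 1, CAAGGTCA, occurred in 1.33% of all promoters and in 0 of the 7, the estrogen response element GGTCANNNTGACC in 0.0239% and 0 of the 7, and the androgen response element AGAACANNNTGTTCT in 0.012% and 0 of the 7. The CCAAT box, which NF-Y binds and which is not in capitals, was found in 34.0% of promoters and in 2 of the 7, *Giot1* and *Nptx2*. A match or its lack describes these letters in this window only.

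*Scx* was the gene whose signal followed *Giot1* most closely, with a Pearson r of 0.92 over the 30 arrays, rank 1 of all genes. Its levels were 6.78, 8.37, 8.16, 6.92 and 7.19 in control males, 8.71, 8.85, 8.22, 8.13 and 8.01 in ORX rats, and 6.04, 6.40, 5.98, 5.78 and 6.23 in ORX + T rats. In the females they were 7.84, 8.05, 8.04, 8.43 and 7.68 in controls, 8.88, 8.96, 8.64, 8.89 and 8.98 in OVX rats, and 6.73, 6.41, 6.66, 7.01 and 6.63 in OVX + E rats. No female group overlapped another. Control males covered a range of 6.78 to 8.37 that reached into the ORX range. The fall was 2.30 (SE 0.23) after testosterone and 2.18 after estradiol, and the difference from controls was 0.90 after ORX and 0.86 after OVX. The replaced rats stood 1.40 (males) and 1.32 (females) under their controls. Its OVX difference did not pass the test across all genes.

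*Creb3l1* kept the same order of groups. Its mean was 7.86 ± 0.50 (SD, n = 5) in control males, 8.28 ± 0.40 in ORX and 6.73 ± 0.14 in ORX + T rats. The control females averaged 8.28 ± 0.35, the OVX rats 9.09 ± 0.28 and the OVX + E rats 7.15 ± 0.51. The fall was 1.55 (SE 0.23) with testosterone and 1.94 with estradiol, and the replaced rats lay 1.13 under controls in either sex. All 5 ORX + T rats (6.52 to 6.89) were under all control males (7.01 to 8.22), whereas 1 OVX + E rat at 7.96 lay among the control females, whose lowest was 7.88.

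*Arhgap32* was the gene of the set that differed most between the sexes in controls and in the fall after hormone. In the males the signal was 7.82, 9.93, 9.61, 8.95 and 8.99 in controls, 9.83, 9.66, 9.37, 9.34 and 9.15 in ORX rats and 6.80, 6.11, 6.83, 6.81 and 6.41 in ORX + T rats. In the females it was 8.34, 8.16, 8.11, 8.24 and 7.18 in controls, 8.70, 9.14, 8.45, 8.89 and 8.68 in OVX rats and 7.64, 6.42, 8.33, 7.69 and 7.16 in OVX + E rats. Control and ORX males lay in 1 range and the ORX + T rats far under it. In the females the OVX rats were above all controls, but the OVX + E rats reached from the lowest value of the females up into the controls. The fall with testosterone was 2.88 (SE 0.31), the largest of the 10 genes, and the fall with estradiol 1.32, a call that was lost without OVX 2, OVX 4, OVX + E 2 or OVX + E 5. The ORX difference was only 0.41 and the OVX difference 0.76, and the replaced rats lay 2.47 (males) and 0.56 (females) under their controls.

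*Jcad* and *Nptx2* are the remaining genes of cell junction and secretion. *Jcad* had means of 7.12 ± 0.43 (SD, n = 5), 7.32 ± 0.89 and 5.99 ± 0.38 in control, ORX and ORX + T males, and of 7.49 ± 0.57, 7.92 ± 0.50 and 6.59 ± 0.49 in control, OVX and OVX + E females. The 2 narrow ORX arrays read 6.29 and 6.44 against 7.71 to 8.16 on the 3 wide ones, so that ORX overlapped both other male groups. *Nptx2* had means of 6.76 ± 0.39, 7.81 ± 0.63 and 5.79 ± 0.28 in the males and of 7.49 ± 0.59, 8.18 ± 0.52 and 6.92 ± 0.77 in the females. Its fall was 2.02 (SE 0.33) with testosterone and 1.25 with estradiol, and that of *Jcad* 1.33 (SE 0.34) with either hormone. The OVX + E rats of *Nptx2* ranged from 6.10 to 7.95 and overlapped the OVX rats (7.45 to 8.85), which made *Nptx2* the one gene of the set whose OVX and OVX + E groups overlapped.

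In *Osgin2* and *Ccp110* the gonadectomized rats stood more than 2-fold above controls in both sexes, while the replaced rats overlapped the controls. *Osgin2* read 8.32, 8.51, 7.53, 7.81 and 7.71 in control males, 9.52, 9.42, 8.72, 9.68 and 9.21 in ORX rats and 8.26, 7.16, 7.83, 7.75 and 7.17 in ORX + T rats. It read 8.08, 8.56, 8.58, 8.63 and 7.47 in control females, 9.37, 9.70, 9.31, 9.59 and 9.23 in OVX rats and 8.09, 6.59, 7.95, 8.23 and 6.66 in OVX + E rats. In both sexes the gonadectomized rats stood above all others, and controls and replaced rats overlapped. The ORX difference of 1.33 (SE 0.30) was the largest of the 10 genes in the males, the OVX difference was 1.18, and the falls were 1.68 with testosterone and 1.93 with estradiol. Replaced rats lay 0.34 (males) and 0.76 (females) under controls.

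*Ccp110* came closest to the control level in the OVX + E rats. The signal was 6.73, 7.42, 6.82, 6.66 and 6.73 in control males, 8.67, 8.47, 7.66, 7.87 and 7.24 in ORX rats and 6.68, 6.02, 6.50, 6.58 and 5.98 in ORX + T rats. In the females it was 6.86, 6.45, 6.46, 7.13 and 6.20 in controls, 7.72, 8.21, 7.59, 8.26 and 7.54 in OVX rats and 6.66, 6.32, 6.57, 6.93 and 5.72 in OVX + E rats. OVX rats lay above all control females, while 1 control male at 7.42 reached the ORX range. The difference was 1.11 (SE 0.25) after ORX and 1.24 after OVX, the falls were 1.63 and 1.42, and OVX + E rats came to within 0.18 of control females, a difference that was 0.047 in the other direction with array weights.

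The membrane proteins of the set lay at different heights above the array medians. *Mal2* had means of 5.97 ± 0.49 (SD, n = 5), 6.03 ± 0.70 and 4.83 ± 0.13 in control, ORX and ORX + T males, and of 5.22 ± 0.40, 5.93 ± 0.50 and 4.83 ± 0.30 in control, OVX and OVX + E females. It was near the array medians of 4.36 to 4.63, and 1 of its OVX + E values lay under the median of its array, the only such value of the set. Control and ORX males differed by 0.06 (SE 0.28), and ORX + T males lay 1.14 under controls. *Cldnd1* was far above the array medians in every group, with means of 9.33 ± 0.23, 10.03 ± 0.23 and 8.82 ± 0.31 in control, ORX and ORX + T males and of 9.11 ± 0.33, 9.80 ± 0.30 and 8.60 ± 0.67 in control, OVX and OVX + E females. It differed by 0.70 (SE 0.23) and 0.68 after gonadectomy and by -0.51 between replaced and control rats in either sex.

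**Figure D1:**
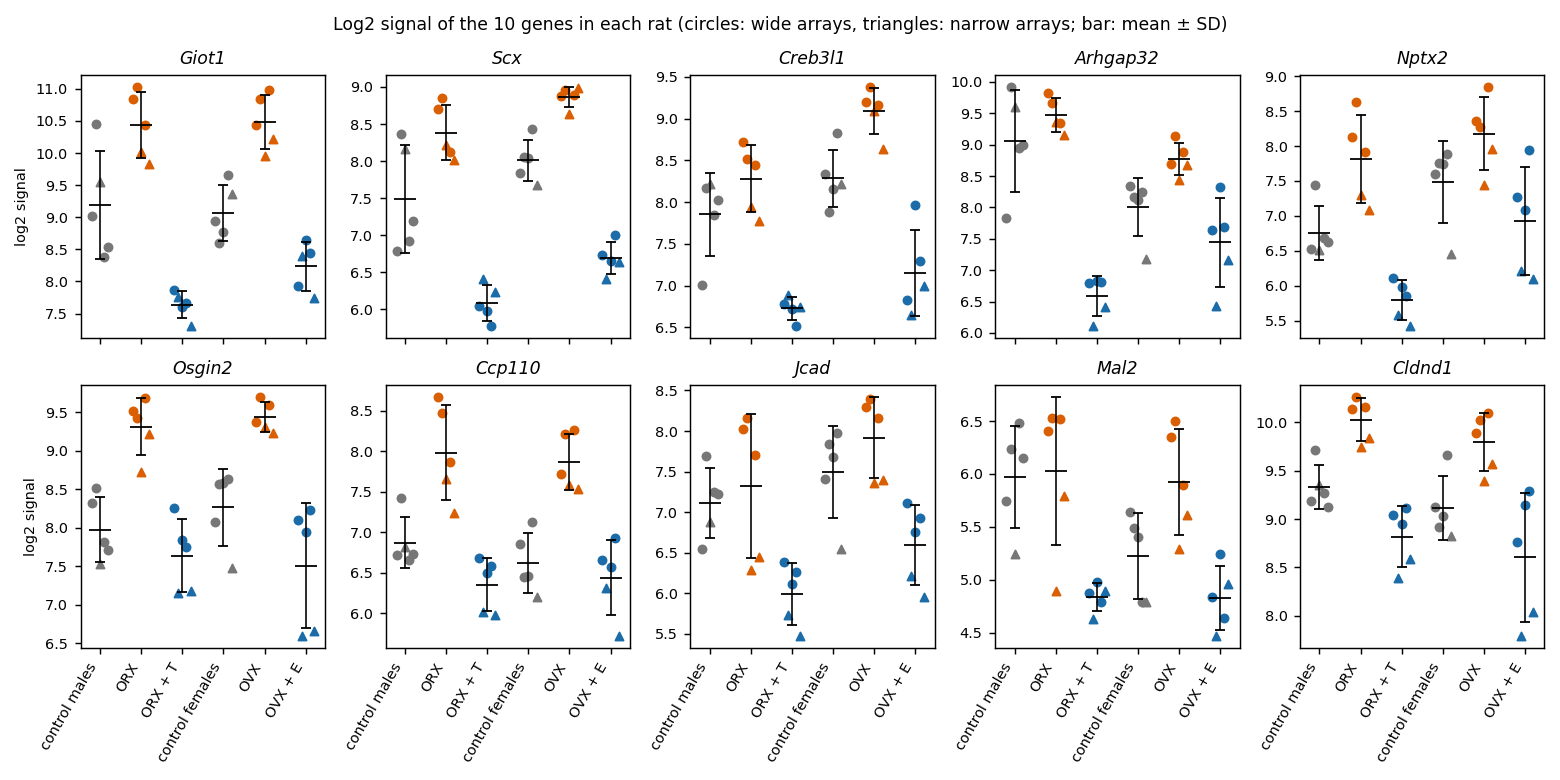
Log2 signal of the 10 genes (vertical axes) in each of the 30 arrays, grouped by sex, surgery and hormone, with 5 rats per group and the group mean and SD marked; narrow and wide arrays have different symbols. The ORX + T points of *Giot1* lie between 7.31 and 7.86, under the control males at 8.39 to 10.46 and the ORX rats at 9.84 to 11.04.

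Across the set, the median difference was -1.65 for ORX + T against ORX and -1.38 for OVX + E against OVX, beside -0.01 and 0.02 over all 14557 genes. Of all genes, 0.687% were lower after testosterone and 1.37% after estradiol at an adjusted p under 0.05 (limma, Benjamini-Hochberg), and 0.289% and 0.817% when a fall of more than 2-fold was asked as well. All 10 genes were among these by their choice, and nothing is read from that count. The estradiol calls of *Nptx2*, *Jcad* and *Mal2* were lost without OVX 1, 2 or 4 or OVX + E 2, among other arrays, the testosterone call of *Mal2* without ORX 2 or 4, and that of *Jcad* without ORX 1, 2 or 4 or ORX + T 2, 3, 4 or 5. *Nptx2* was the nearest to the limit of the test in the females, and *Mal2*, with a smaller fall of 1.10, the nearest of the set to the 2-fold limit. ORX and ORX + T rats did not overlap in 8 of the 10 genes (1.15% of all genes were lower without overlap), the exceptions being *Jcad* and *Mal2*. OVX and OVX + E rats did not overlap in 9 (1.55% of all genes).

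After removal of the gonads, the difference from controls was above 0 in all 10 genes in both sexes. Of all genes, 49.6% were above 0 after ORX and 41.3% after OVX. The high values of the gonadectomized rats also chose the genes, which by itself pushes these differences up. The shares of all genes are therefore no fair background for this count or for those that follow. After ORX the sign turned for *Mal2* without control male 1 or 3 or ORX 1, 2 or 4 (down to -0.12) and for *Jcad* without ORX 2 (-0.0033). The median was 0.80 after ORX, from 0.06 (*Mal2*) to 1.33 (*Osgin2*), and 0.79 after OVX, from 0.43 (*Jcad*) to 1.42 (*Giot1*). Past the test were 0 of the 10 after ORX (0.00687% of all genes, which is 1 gene, were higher), although 6 had an unadjusted p under 0.05 (4.72% of all genes), and 2 after OVX, *Giot1* and *Ccp110* (0.151%, 22 genes), where 9 had an unadjusted p under 0.05 (3.93%). The groups did not overlap in 2 genes after ORX (*Osgin2* and *Cldnd1*, background 0.57%) and in 5 after OVX (*Giot1*, *Scx*, *Arhgap32*, *Osgin2* and *Ccp110*, background 0.605%). Both calls in the females were lost when any 1 of several arrays was left out, control females 1, 2, 3 or 5 and OVX 1, 2 or 4 for each gene, and OVX 5 for *Giot1*. After median centring neither passed.

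The narrow arrays moved these counts, for which the shares of all genes remain no fair background. Without the 10 narrow arrays, 7 genes passed after ORX (*Giot1*, *Scx*, *Nptx2*, *Osgin2*, *Ccp110*, *Jcad* and *Cldnd1*, background 0.687%) and 5 after OVX (*Giot1*, *Osgin2*, *Ccp110*, *Mal2* and *Cldnd1*, background 1.28%). With array SD as covariate the counts were 6 (background 0.914%) and 8 (1.44%). What made the arrays narrow was not tested.

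Against controls, the replaced rats were lower in all 10 genes in both sexes. Of all genes, 51.5% were lower in ORX + T and 53% in OVX + E rats. The low values of the replaced rats chose the genes, which by itself pushes these differences down. The shares of all genes in this paragraph are therefore no fair background, and the counts are a description. The median difference was -1.13 in the males and -0.66 in the females. In the males 5 genes passed the test as lower than in controls (*Giot1*, *Scx*, *Creb3l1*, *Arhgap32* and *Mal2*, background 0.309%), each by more than 2-fold. In the females 2 passed (*Scx* and *Creb3l1*, background 0.185%). The call of *Mal2* was lost without any 1 of the control or ORX + T males except control male 3, and that of *Creb3l1* without control females 1, 3 or 4 or OVX + E 1, 2 or 5. Without the narrow arrays the counts were 7 and 1 (backgrounds 1.36% and 0.447%), and with the array SD as covariate 7 and 3 (2.36% and 0.893%). ORX + T and control males did not overlap in 8 genes (background 0.989%), all but *Osgin2* and *Ccp110*, and OVX + E and control females did not overlap in 1, *Scx* (0.563%).

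**Figure D2:**
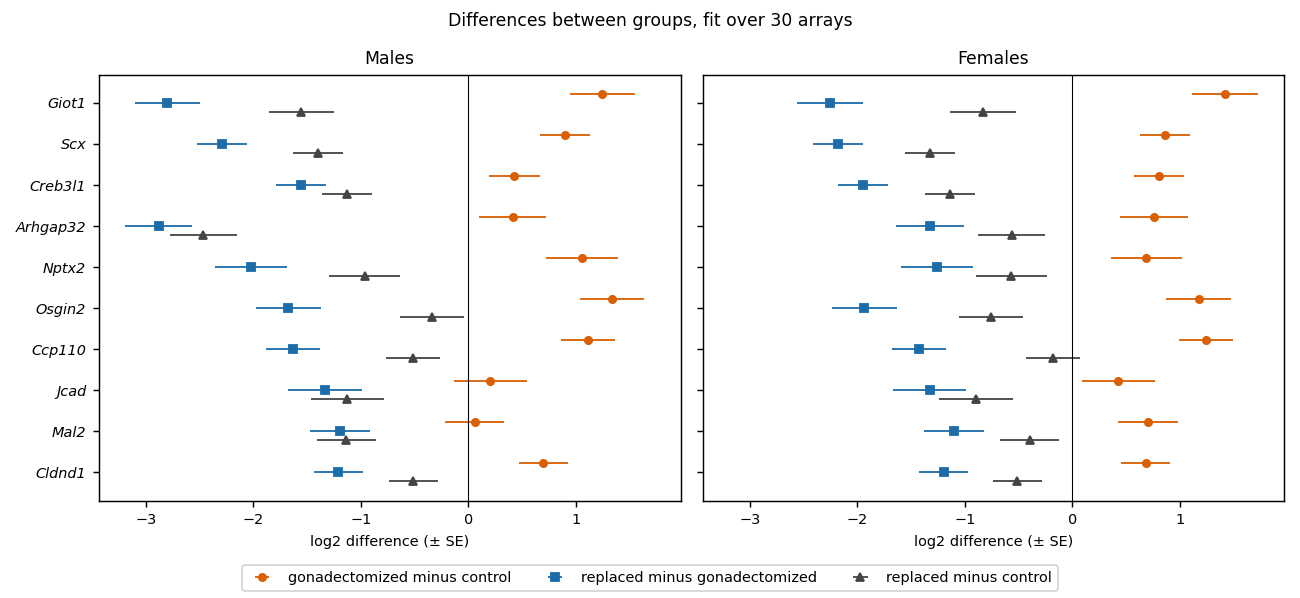
Differences of log2 signal (horizontal axes, points with SE from the fit over 30 arrays) for the 10 genes in males and females: gonadectomized minus control, replaced minus gonadectomized, and replaced minus control. The first lies above 0 and the others below 0 for every gene, with *Arhgap32* at -2.88 in ORX + T against ORX males and -1.32 in OVX + E against OVX females.

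Where controls lay between the 2 treated states was described as a position, with 0% at the mean of the replaced and 100% at the mean of the gonadectomized rats. *Giot1* controls stood at 55.5% in males and 36.9% in females. In the males the positions ran from 20.3% (*Osgin2*) to 95.3% (*Mal2*) with a median of 58.2%, and in the females from 12.7% (*Ccp110*) to 67.6% (*Jcad*) with a median of 42.7%. *Ccp110* and *Osgin2* lay nearest to the replaced rats in the males and *Ccp110* in the females, *Jcad* and *Arhgap32* near the gonadectomized rats in the males (84.6% and 85.7%). *Arhgap32* and *Mal2* differed most between the sexes, at 42.5% and 35.9% in the females, whereas *Scx* (60.9% and 60.5%) and *Cldnd1* (42.4% and 42.8%) had nearly the same place in both.

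**Figure D3:**
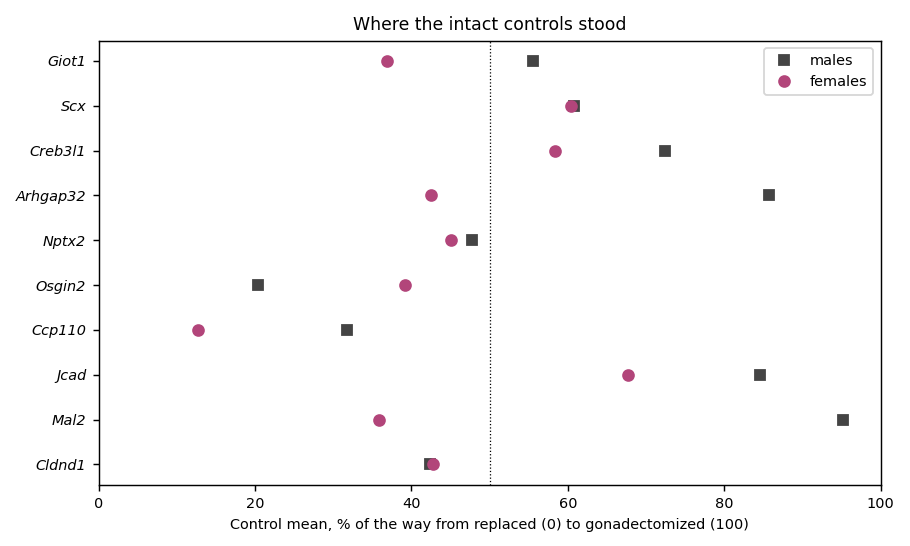
Position of the control mean of each of the 10 genes between the mean of the replaced rats (0%) and that of the gonadectomized rats (100%), in males and females, n = 5 rats per group. Control males lay above 50% in 6 genes and control females in 3.

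The position was tested as the mean of the 2 gonadectomized groups (with and without hormone) minus the control. In the fit over all arrays this contrast is orthogonal to the hormone effect, so its size was not fixed by the choice of the genes. Its SE rests on the variance per gene that also enters the hormone comparisons, so its p-values are not fully free of that choice. With the array SD as covariate or with array weights the orthogonality need not hold. No gene of the set passed in either sex after adjustment over all genes, where 0.0893% of all genes passed in males and 0.0206% in females. At an unadjusted p under 0.05 there were 2 in males and 1 in females, against 3.44% and 1.85% of all genes. *Arhgap32* had the midpoint 1.03 below control males (95% interval -1.58 to -0.47, adjusted p = 0.299 in limma), *Mal2* 0.54 below, and *Ccp110* had it 0.53 above control females. With the array SD as covariate, *Arhgap32* (-0.95, adjusted p = 0.0182 in limma) and *Osgin2* (0.61, adjusted p = 0.0198) passed in the males (backgrounds 0.618% lower and 0.817% higher), and without the narrow arrays *Osgin2* alone (0.66, adjusted p = 0.0382, background 0.598% higher).

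Control females and control males were compared as groups that the rule did not use, although the SE in limma rests on the same shared variance. *Arhgap32* was 1.05 lower in females (95% interval -1.69 to -0.41, adjusted p = 0.276 in limma) and *Mal2* 0.75 lower (-1.31 to -0.18, adjusted p = 0.659), while *Nptx2* was 0.73 higher (0.05 to 1.42) and *Scx* 0.52 higher (0.05 to 1.0). None of the 10 passed (0.433% of all genes did), although these 4 had an unadjusted p under 0.05 (4.01% of all genes). Exact two-sided permutation tests gave p = 0.0397 for *Arhgap32* and p = 0.0476 for *Mal2*, out of 10 such tests with a smallest possible p of 0.00794. For *Giot1* the difference was -0.12 with an interval of -0.75 to 0.50. Without the narrow arrays *Nptx2* (0.93, adjusted p = 0.0106 in limma) and *Mal2* (-0.82, adjusted p = 0.0105) passed, where 0.934% of all genes were lower and 2.67% higher in females. With the array SD as covariate *Nptx2*, *Mal2* and *Arhgap32* passed (1.24% lower, 3.33% higher).

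The falls are set side by side between the arms as a description with no test, since the 4 treated groups that give them also chose the genes. The fall of *Arhgap32* was smaller with estradiol than with testosterone by 1.56 (SE 0.44), and that of *Nptx2* by 0.77 (SE 0.47). Without the narrow arrays these differences were 1.78 and 1.18. For *Giot1* the difference was 0.55 (SE 0.43), and for *Jcad*, *Cldnd1*, *Mal2* and *Scx* it was between 0.00 and 0.12. *Osgin2* and *Creb3l1* had the opposite sign, at -0.26 and -0.39. The differences after gonadectomy, which share the ORX and OVX rats, stood apart between the sexes by -0.36 (*Nptx2*) to 0.65 (*Mal2*).

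Genes past both thresholds in both arms numbered 16 (0.11% of all genes), of 42 lowered more than 2-fold by testosterone (38.1%) and 119 by estradiol (13.4%). Besides the 10 genes these were *Eola2*, *Fabp6*, *Ndrg1*, *Nos1*, *Rpl35l2* and *Vom2r53*. *Ndrg1*, a stress-responsive gene of cell differentiation, differed by -1.47 with testosterone and by -2.60 with estradiol, and *Nos1*, the neuronal nitric oxide synthase, by -1.39 and -1.02. *Fabp6*, an intestinal bile acid-binding protein, differed by -1.34 and -1.56. *Vom2r53*, named as a vomeronasal receptor, differed by -1.25 and -2.40 but lay under the array medians in controls, at means of 3.95 (males) and 3.87 (females). Just inside the fold limit were *Nos1* and *Eola2*, with a smaller fall of 1.02 and 1.04, and just outside it *Nfil3* (0.98) and *Abtb2* (0.88). With no fold limit 26 genes (0.179%) were lower in both arms, 26% of 100 and 13% of 200, while 3 were higher in both and 9 opposite. The 2 arms share no array, but both tests use 1 variance per gene from the fit over all arrays. Passing in 1 arm is therefore not independent of passing in the other.

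**Figure D4:**
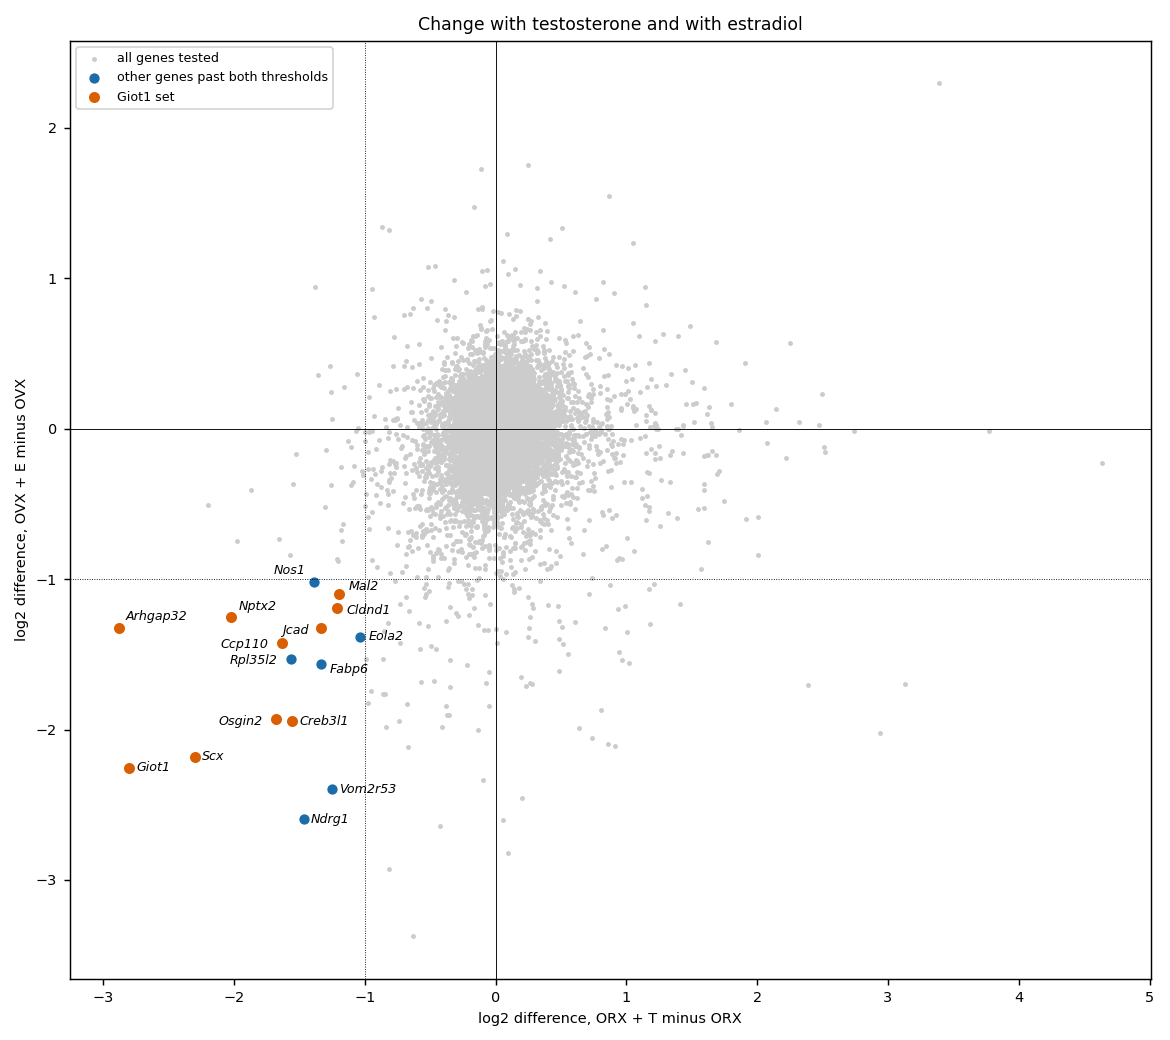
Log2 difference with testosterone (ORX + T minus ORX, horizontal axis) and with estradiol (OVX + E minus OVX, vertical axis) for all genes tested, with the 10 genes and the 6 others past both thresholds in colour and dotted lines at a 2-fold fall. The set lies in the lower left, from *Giot1* at -2.80 and -2.25 to *Mal2* at -1.19 and -1.10.

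Likeness to *Giot1* was measured by Pearson r over the 30 arrays, which share groups and the spread of each array, and is a description. Of the other genes of the set, *Ccp110* (0.90), *Creb3l1* (0.86), *Cldnd1* (0.84), *Osgin2* and *Arhgap32* (each 0.82) and *Nptx2* (0.81) came within the first 16 of all genes, and *Jcad* (0.75) and *Mal2* (0.67) ranked 34 and 87. Outside the set the likest were *Rpl35l2* and *Lrrc58* (each 0.86), *Eola2* and *Gramd1b* (each 0.85), *Ndrg1* (0.84), *Abtb2* (0.83), and *Plpp3* and *Hagh* (each 0.82). Within groups, that is after the group mean was taken off, the 45 pairs of the 10 genes had a median r of 0.55 (0.02 to 0.87). When the array SD was also taken out the median was 0.42 (-0.60 to 0.76), with 36 pairs above 0. The deviations of the 10 genes correlated with the array SD itself at a median r of 0.70.

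Relatives of the 10 genes were counted by the same test. Of 211 zinc finger genes, 2 (0.948%) were lower after testosterone, *Giot1* and *Zfp347* (-1.87), beside 0.687% of all genes. After estradiol 2 (0.948%) were lower, *Giot1* and *Zfp36l1*, beside 1.37% of all genes, and 6 (2.84%) were higher, beside 0.316%. Of 26 claudin genes *Cldnd1* alone passed in either hormone comparison. *Osgin1* had differences of 0.36 with testosterone and -0.63 with estradiol and passed neither. Of 4 CREB3 family genes *Creb3l1* alone passed, lower with both hormones by its choice. A list of 8 CREB3, ATF6 and related factors left *Creb3l1* out. Of these 8, 0 passed with testosterone and 1, *Atf4*, was lower with estradiol. Of 10 tendon and collagen genes downstream of scleraxis 1, *Dcn*, was higher with testosterone and 0 passed with estradiol (medians 0.12 and -0.19, beside -0.01 and 0.02 over all genes). Apart from the 10 genes of the set, none of 6 pentraxin and AMPA receptor genes or 10 centriole and cilium genes passed with either hormone. The same held for 11 genes of MAL proteolipids and tight junctions and 6 sex steroid receptors and partners.

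The cyclic AMP-induced genes of steroidogenic cells are given because the letters of the response element lie before *Giot1*. Of 15 measured, 1 was higher with testosterone (*Mc2r*, the ACTH receptor), beside 1.37% of all genes. Lower with testosterone was 1 (*Dusp1*, a phosphatase of MAP kinases, at -1.36), beside 0.687%. With estradiol 4 were lower, beside 1.37% of all genes. They were *Nr4a2* (-2.10) and *Fosb* (-2.34), which encode transcription factors, *Per1* (-1.49), a clock gene, and *Sik1* (-1.87), a kinase that restrains CREB signalling. The medians of the 15 were -0.05 and -0.29, beside -0.01 and 0.02 over all genes. Below 0 were 9 of 15 with testosterone and 11 with estradiol, beside 53.6% and 44.6% of all genes. None passed as lower in both arms. *Nr4a2*, *Per1* and *Sik1* had higher means in ORX + T than in ORX rats, without passing. These means were 9.02 against 8.16, 8.33 against 7.39 and 7.77 against 6.97. *Fosb* had 4.91 against 5.00. *Dusp1* had a higher mean in OVX + E than in OVX rats (10.06 against 9.70), also without passing. Of the clock genes, *Nfil3*, a repressor that peaks opposite to *Dbp*, was the only 1 of 5 opposite-phase genes to pass with either hormone, and was lower with both (-0.98 and -1.82). Of 4 genes in phase with *Dbp*, 0 passed with testosterone and *Per1* with estradiol. Against controls, *Dbp* was higher after ORX (1.38) and OVX (1.66), and *Bmal1* and *Npas2* were lower after ORX by more than 2-fold. In ORX + T rats against controls *Dbp*, *Per2* and *Per3* were higher and *Bmal1*, *Npas2* and *Nfil3* lower, and in OVX + E rats *Dbp* was higher and *Nfil3* lower.

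Markers of other cell types moved in part with the groups. The summed signal of 7 capsule and fibroblast genes was 1355 to 1601 in ORX and 1810 to 1956 in ORX + T rats. *Dcn* and *Postn* were higher in ORX + T rats, whereas *Scx* and *Creb3l1* were lower in the same rats. In ORX rats *Postn* read 4.26 to 4.87, near the array medians of 4.36 to 4.63. In ORX + T rats it read 4.75 to 5.91. Between OVX and OVX + E rats the ranges of the capsule and fibroblast sum overlapped (1339 to 1541 and 1064 to 1363) and none of the 7 passed. Of 6 endothelial genes none passed with either hormone (medians -0.06 and -0.45). *Cldn5* was counted as under the array median, a count made per gene over all arrays and not by group. The summed endothelial signals were 795 to 1412 in ORX, 889 to 1276 in ORX + T, 939 to 1486 in OVX and 765 to 1438 in OVX + E rats. Of 4 zona fasciculata genes *Mc2r* was higher and *Cyp11b1* and *Akr1b7* were lower with testosterone, and of 3 zona glomerulosa genes *Cyp11b2* was lower with estradiol. None of 5 chromaffin or 3 macrophage genes passed with either hormone. Of 2 Schwann cell genes *S100b* was higher with testosterone (1.01), and *Sox10* was counted as under the array median over all arrays. The summed signal of the 2 genes was 83.0 to 155 in ORX and 193 to 263 in ORX + T rats. Between OVX (82.9 to 152) and OVX + E rats (110 to 172) that sum overlapped. Of 4 adipocyte genes 3 were counted as under the array median over all arrays, and none passed. The part of these cell types in the falls of the 10 genes was not tested.

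Single rats carried part of the spread of the control groups. Control male 2, a wide array, had the highest control signal in 8 of the 10 genes, and control female 5, a narrow array, the lowest in 8. Without control male 2, the ORX difference of *Giot1* was 1.56 in place of 1.25. Control female 4 was the highest of its group in 8 genes.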

How the data were processed

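RNA of whole adrenals from 30 rats, 5 in each of 6 groups, was put on 1 array per rat (Affymetrix Rat Gene 2.1 ST). The authors made the deposited log2 values by RMA in the affy package with annotation from oligo, and versions are not given in the sources used here. RMA usually gives all arrays nearly the same spread, which was not so here (SD 1.43 to 1.75), and which arrays were normalized together is not stated. No further scaling was applied. Precision is limited by 5 arrays per group.

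Of 36685 probe sets, 14824 had 1 gene symbol in the platform annotation, 829 several and 21032 none. The brightest stood for each gene (234 had more than 1), which left 14557 genes, of which 14416 were found in the RefSeq gene table and 0 renamed. Groups were compared with limma (version 3.58.1, R 4.3.3) in 1 fit of the 6 group means to the 30 arrays, with empirical Bayes variances (24 residual degrees of freedom plus a prior of 2.92) and Benjamini-Hochberg adjustment over all genes. A gene passed at an adjusted p under 0.05. Standard errors are those of the fit. The script was tested on simulated data.

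Groups and replicate numbers come from the labels, which call the arrays biological replicates. The numbers were not taken to pair rats, since the labels do not say that they do. The deviations of same-numbered arrays correlated above 0.1 in 48 of 75 pairs (-0.76 to 0.87), so the numbers may carry shared structure. Replicate 5 was a narrow array in every group but the control males. What the correlations reflect was not tested.

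The 10 genes, the gene lists and the comparisons were chosen with earlier results of these data known, the gene families by name stem after the values were seen. Named genes were the 10, the 8 others most correlated with *Giot1*, all genes lowered more than 2-fold in both arms, and list members that passed or are relatives of the 10. Other names, such as those just outside the fold limit, were chosen after their values were seen. Promoters came from RefSeq (GRCr8). The alternatives tried were arrays of 1 sex, no narrow arrays, the array SD as covariate, a replicate block, array weights, robust variances with an intensity trend, only the 60% brightest genes, quantile normalization, median centring, the mean of probe sets, a 2-fold limit and leaving out each array.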

Additional observations from a re-analysis of the deposited data

Results flagged for a closer look

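Each of the 10 genes was examined in each of 6 groups for a single rat set apart from the other 4. Of 60 groups 4 held one, where chance gives about 1 in 20 for independent groups. The genes share arrays, so the 60 groups are not independent, and the flags came from control female 5 and control male 2 alone. The rate is therefore no test. *Nptx2* read 6.45 in control female 5, with the next value at 7.60. *Arhgap32* read 7.18 in the same rat, with the next value at 8.11, and its array was narrow. *Nptx2* read 7.44 in control male 2, with the next value at 6.68. *Ccp110* read 7.42 in the same control male, whose array was wide, with the next value at 6.82.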

How the results depend on the processing

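Counts of the 10 genes that passed are given with the share of all genes that passed the same way in that fit. The choice of the genes favours the counts after ORX, after OVX and in OVX + E rats. For these the shares are no fair background. After ORX, 0 genes passed over all arrays (0.00687%), 7 without the narrow arrays (0.687%), 6 with the array SD as covariate (0.914%), 7 with array weights (1.94%), 5 after quantile normalization (0.323%) and 2 with a replicate block (0.0343%). After OVX, 2 passed (0.151%), and 5 (1.28%), 8 (1.44%), 8 (2.05%) and 4 (0.769%) under the first 4 of these, but 0 (0.0481%) after median centring. As lower in OVX + E than in control females, 2 passed, and 1 with females only, without the narrow arrays (0.447%) or with array weights (0.598%). The male midpoint (0) gave 1 without the narrow arrays, 2 with the SD covariate, 3 with weights (1.72% lower, 1.41% higher) and 1 after quantile normalization (0.247% lower). The control sex difference (0) gave 2, 3, 4 (2.07% lower, 4.34% higher with weights) and 1 (0.598% lower after quantile normalization). The fits without the narrow arrays, with the SD covariate, with weights and after quantile normalization passed more of all genes with either hormone. Median centring passed fewer. No count is given for the sex difference of replacement, whose arrays also chose the genes. The replicate block changed no other count of the 10 genes by over 1.5 times. Among differences larger than their SE, the sign of 1 turned: that of *Creb3l1* between the arms, -0.39, was 0.013 without the narrow arrays and 0.037 with array weights.

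The falls chose the genes, so that their counts are no sign of stability. Leaving out 1 array at a time left 8 to 10 genes lower with testosterone and 6 to 10 with estradiol. It left 0 to 2 higher after ORX (2 without control male 2) and 0 to 2 after OVX. It left 4 to 5 lower in ORX + T than in controls and 1 to 2 in OVX + E rats. In the male midpoint it left 0 to 1, in the female midpoint 0 and in the control sex difference 0 to 1. The estradiol count was 6 without OVX 2, OVX 4 or OVX + E 2. No share of all genes is given for these refits, so nothing about the 10 genes is read from their counts.

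Over all genes, 100 lower and 199 higher with testosterone became 523 and 450 without the narrow arrays, 737 and 711 with the SD covariate, 723 and 603 with weights, 377 and 477 after quantile normalization and 52 and 157 after median centring. With estradiol 200 and 46 became 652 and 467, 599 and 1527, 596 and 469, 521 and 347, and 164 and 22. The 16 genes lowered more than 2-fold in both arms became 25 with weights and 10 after median centring or without OVX + E 2. Without the narrow arrays they became 22, with 9 of the set, since the estradiol fall of *Cldnd1* was then 0.94. With the SD covariate they became 17, again with 9 of the set, since that of *Mal2* was 0.93. The cause of these moves was not tested.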
